A study of Mus musculus with 2 samples.

Results

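A set of 55 homeobox genes outside the Hox, Pax, Lhx, Nkx, Dlx and sine oculis-related families was examined for H3K27me3 in mouse rib chondrocytes, the cells that make cartilage. The genes were chosen by name, and a gene counted as associated with H3K27me3 if a region of the deposited list named it, that is, if a region lay within 5000 bp. Regions named 44 of the 55, and the list named 922 genes in all. A further ChIP-seq series of the study was not analysed here, so a gene without a region in this list may carry the mark in the other. Chromatin came from wild-type CD1 mice at postnatal day 2.5 (p2.5). Rib chondrocytes of 11 mice were pooled, cultured overnight in medium with 5% serum on 2 dishes of 10 cm and crosslinked. There was 1 library of chromatin pulled down with an H3K27me3 antibody (ChIP) and 1 library of input DNA, taken as 2% of the same chromatin. Neither group carried a genetic change or a treatment beyond culture. There were no replicates, so no difference between conditions could be tested, and the intervals given here cover counting error of the reads (tags) only.

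Homeobox genes encode transcription factors that bind DNA through a homeodomain. Many of them assign identity to a body segment, a limb, a sense organ or a class of neuron. Polycomb repressive complex 2 (PRC2) places 3 methyl groups on lysine 27 of histone H3 (H3K27me3), and developmental transcription factor genes are known to carry this mark in cells where they are silent. The mark often spreads over several kilobases around the start and body of a gene, in particular where the DNA is rich in CG dinucleotides.

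The list held 2017 regions with 143822 ChIP and 19260 input tags, so that 7.47 ChIP tags were counted for each input tag. The depth of the libraries is unknown here, and such ratios are not corrected for it. A region had to reach a ChIP height of 8, and the smallest held 20 ChIP tags, so weaker signal was not detectable. Of 12 chondrocyte marker genes, among them Col2a1, Acan and Sox9, 0 had a region. A region was found for 1 of 6 genes of osteoblasts and fibroblasts (Col1a1) and for 0 of 4 muscle genes and 0 of 4 genes of blood and endothelium. Over all protein-coding genes the share with a region was 3.90%, so that lists of this size would hold few such genes in any case. RNA was not measured in these libraries, and these counts do not show which cells were present.

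A listed region was found for 44 of the 55 homeobox genes (80%), against 3.90% of 21896 protein-coding genes of the RefSeq annotation. The 55 genes were picked when results of these data were already known, so this share is a description of the set. A second list of 59 other homeobox genes had a region at 22 (37.3%), and over both lists it was 66 of 114 (57.9%). In the second list, regions were found at Dmbx1, Pdx1, Prox1 and Onecut3, among others. Without a region were Alx1, Bsx, Emx2, Gsx1, Irx3, Meis1, Meis2, Meox2, Otx1, Prrx1 and Vsx1, the 11 remaining genes of the 55.

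Windows at the start of 5 genes are shown to make visible what kind of DNA lies there. They come from RefSeq (build GRCm38.p6, 250 bases before to 50 bases after the start, written in the direction of transcription), with each CG dinucleotide in capitals. CG reads the same on both strands. Regions were mapped on build mm9, so positions were not matched between the builds, and the start used by the list may differ. Cdx2 is shown because it was the only gene of the 55 with a region over its 5′ end. In Hmx2 and Barx1 a region ended or began less than 50 bp from the 5′ end. Prrx1 and Emx2 were named by no region, and their windows differ widely.
Cdx2 (minus strand, chr5:147307200-147307499): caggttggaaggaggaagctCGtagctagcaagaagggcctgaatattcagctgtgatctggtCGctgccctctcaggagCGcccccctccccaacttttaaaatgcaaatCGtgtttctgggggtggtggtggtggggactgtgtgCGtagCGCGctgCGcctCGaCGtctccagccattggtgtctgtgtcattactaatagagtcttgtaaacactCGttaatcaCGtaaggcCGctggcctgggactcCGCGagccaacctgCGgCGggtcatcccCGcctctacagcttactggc
Hmx2 (plus strand, chr7:131554043-131554342, the window with more CG of the 2 listed): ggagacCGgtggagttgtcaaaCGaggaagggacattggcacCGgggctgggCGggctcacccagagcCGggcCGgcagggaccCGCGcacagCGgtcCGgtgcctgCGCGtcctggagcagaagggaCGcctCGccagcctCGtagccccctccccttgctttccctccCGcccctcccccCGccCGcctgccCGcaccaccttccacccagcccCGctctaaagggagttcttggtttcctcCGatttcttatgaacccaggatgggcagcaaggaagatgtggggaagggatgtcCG
Barx1 (plus strand, chr13:48662786-48663085): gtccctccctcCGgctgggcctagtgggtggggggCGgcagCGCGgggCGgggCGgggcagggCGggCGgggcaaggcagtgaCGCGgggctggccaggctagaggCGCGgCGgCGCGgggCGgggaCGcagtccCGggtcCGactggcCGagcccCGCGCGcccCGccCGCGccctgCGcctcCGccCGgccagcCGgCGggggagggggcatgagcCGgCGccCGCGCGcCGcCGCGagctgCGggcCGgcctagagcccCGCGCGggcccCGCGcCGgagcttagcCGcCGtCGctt
Prrx1 (minus strand, chr1:163313601-163313900): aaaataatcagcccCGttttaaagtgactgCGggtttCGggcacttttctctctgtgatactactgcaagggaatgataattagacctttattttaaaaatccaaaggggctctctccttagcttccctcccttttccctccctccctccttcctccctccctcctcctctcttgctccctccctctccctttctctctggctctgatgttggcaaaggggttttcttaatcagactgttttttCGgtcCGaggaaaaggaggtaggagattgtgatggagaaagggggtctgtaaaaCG
Emx2 (plus strand, chr19:59458440-59458739): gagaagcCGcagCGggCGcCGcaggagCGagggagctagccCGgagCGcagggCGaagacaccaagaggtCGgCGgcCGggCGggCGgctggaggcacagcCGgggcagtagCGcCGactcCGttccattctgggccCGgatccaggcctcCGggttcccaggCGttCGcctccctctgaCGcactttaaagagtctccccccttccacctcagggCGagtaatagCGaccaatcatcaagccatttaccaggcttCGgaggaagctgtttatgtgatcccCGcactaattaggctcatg

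The window of Barx1 held 50 CG dinucleotides, that of Hmx2 22 and that of Cdx2 18. The window of Emx2 held 26 and that of Prrx1 held 6. Single windows with and without a region overlapped in their counts. Gsx1 (19) and Bsx (17) had no region, while Shox2 (11), Lmx1a (12), Evx1 (12) and Barhl1 (14) had one. The lowest counts were those of Vsx1 (5) and Prrx1, both without a region, and the highest that of Barx1, with a region. These windows are examples and do not compare the groups. Over 17491 protein-coding genes the median was 15, and 95% of them held at least 1 CG. A window was found for 41 of the 55 genes (74.5%), which is under the 80% needed, so a comparison of CG content between genes with and without a region is void and is not given.

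The 44 genes were named by 90 regions on 15 chromosomes, which covered 147803 bp. These regions held 7687 ChIP and 949 input tags (ratio 8.10, 95% interval by Clopper-Pearson 7.57 to 8.67). All listed genes together had a ratio of 7.67 (7.53 to 7.82). The regions of the homeobox genes had a median length of 1298 bp, with a range of 392 to 5512 bp, and 28 of the 90 (31.1%) were 2000 bp or longer. Among the regions of all listed genes the median was 1096 bp and 17.3% were that long. The share was 32.6% in the second homeobox list, 38.8% at the Hox, 20% at the Lhx and 9.09% at the Dlx genes. ChIP tags had a median density of 53.4 tags per kb in the homeobox regions and 54.4 in those of all listed genes. A region had to pass the height limit of the caller to be listed, so regions of low density could not appear in either set.

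The median amount of sequence in regions was 2766 bp per homeobox gene, from 421 bp at Meox1 to 10566 bp at Lmx1b. It was 1536 bp over all 922 listed genes, 2702 bp over the 22 genes of the second homeobox list, 4058 bp over 25 Hox genes, 4975 bp over 8 Lhx genes and 2097 bp over 6 Dlx genes. At least 2 regions were found for 26 of the 44 genes (59.1%), against 36.4% of all listed genes. The share was 59.1% in the second homeobox list, 80% in the Hox, 87.5% in the Lhx and 66.7% in the Dlx genes, so it was not particular to these genes. The count of 26 fell to 8 with only regions overlapping the gene, to 7 with only those within 2500 bp of the 5′ end, to 12 where the height had to reach 9, to 3 where it had to reach 10, and to 16 with regions within 3000 bp merged. There was 1 region at 18 genes, 2 at 12, 3 at 10 and 4 at 3 genes, while Lmx1b had 6. Of the 50 listed genes with the most sequence in regions, 6 were among the homeobox genes described here, which made up 4.77% of all 922 listed genes. The medians of the Hox and Lhx genes, given above, were larger than theirs. The highest point of the ChIP profile reached 10 at 12 of the 44 genes (27.3%), against 19.5% of all listed genes. The share was 13.6% in the second homeobox list, 48% in the Hox, 62.5% in the Lhx and 33.3% in the Dlx genes.

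**Figure D1:**
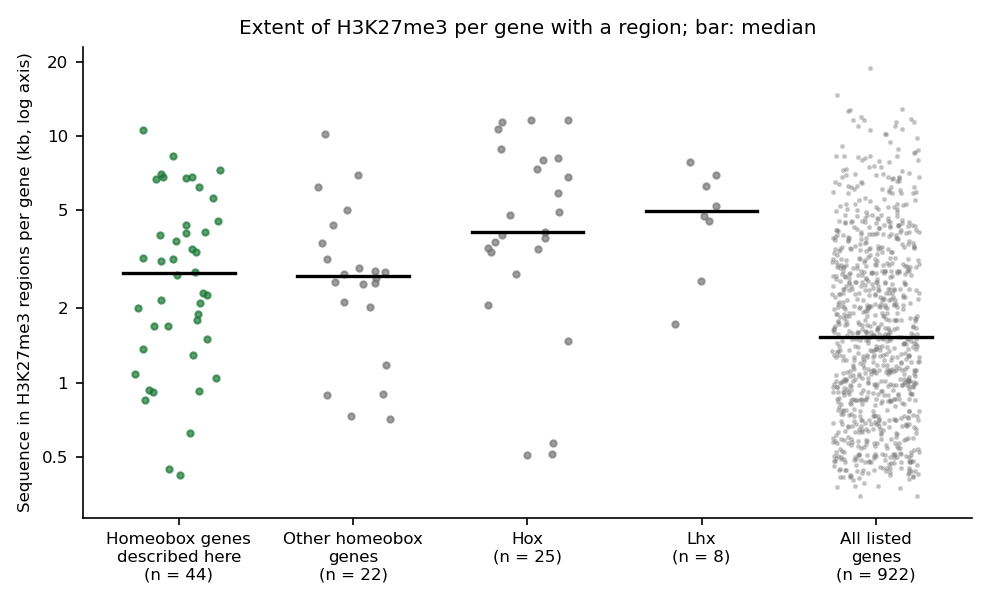
Sequence in H3K27me3 regions per gene (kb, log axis) for each gene with a region. Points are genes and bars are medians. The 44 homeobox genes have a median of 2766 bp and lie between 421 and 10566 bp, and the 922 listed genes have a median of 1536 bp.

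Position relative to the gene varied. Of the 90 regions, 40 lay inside or across the 3′ end of the gene, 29 were upstream, 20 were downstream and 1 covered the 5′ end. A region overlapped the gene at 27 of 44 genes (61.4%), against 63.8% of all listed genes. A region lay within 2500 bp of the 5′ end at 25 genes (56.8%), against 56.1% of all listed genes. These shares were close to those of the whole list. Regions over the 5′ end made up 1.11% of the regions here, that is 1 region, and 6.06% of the pairs of region and gene in the whole list. In such pairs the share was 6.52% in the second homeobox list, 4.41% at the Hox, 4% at the Lhx and 0% at the Dlx genes.

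**Figure D2:**
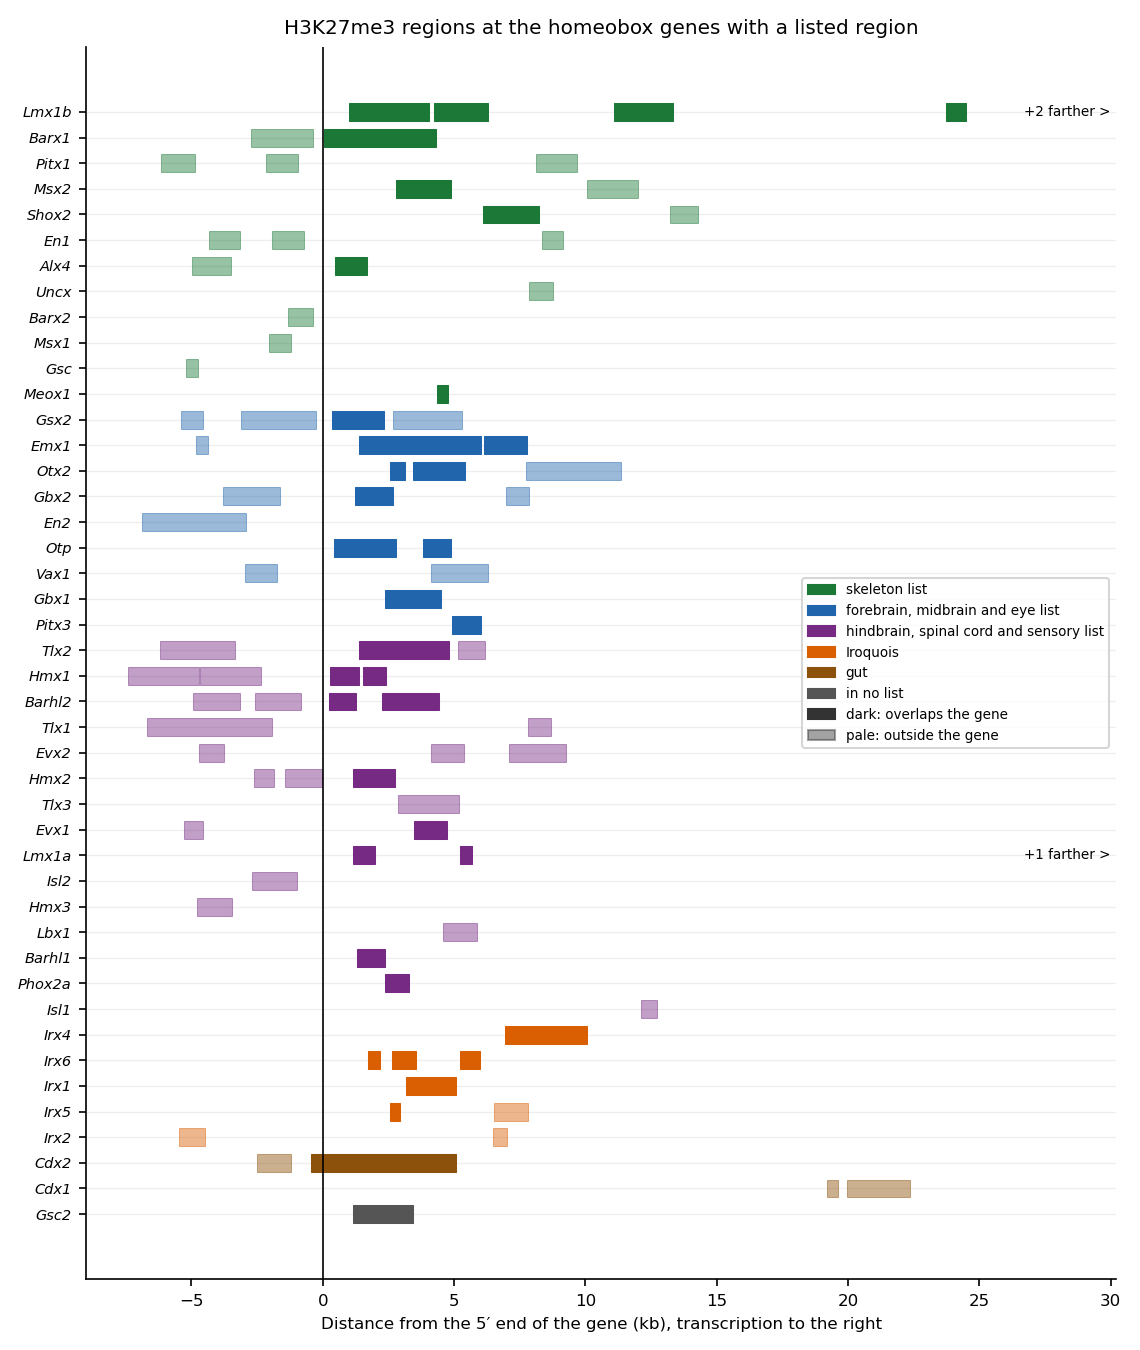
H3K27me3 regions at the 44 homeobox genes, by distance from the 5′ end (kb, transcription to the right). Colours mark the lists by tissue. Dark bars overlap the gene and pale bars lie outside it. The only bar across the 5′ end is that of Cdx2, and the farther regions written at the right edge are 2 of Lmx1b and 1 of Lmx1a.

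Another gene was also named by 11 of the 90 regions, at 8 of the homeobox genes. Such a region cannot be assigned to a single gene. Both regions of Cdx1 also named the transporter gene Slc6a7, and one of them covered the 5′ end of Slc6a7. All 3 regions of Tlx2 named Dqx1 or Pcgf1. The others were found at Evx2 (with Hoxd13), Hmx2 (with Bub3), Gsc2 (with Dgcr14), Phox2a (with Inppl1), Irx2 (with D430050G20) and Msx1 (with the antisense gene Msx1as). When a region counted only for its nearest gene, all 44 genes kept at least 1 region.

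The genes were then described by the tissues in which they are best known to act. These lists were drawn up with earlier results of these data known, so their shares with a region are descriptions. The share was 80% over all 55 genes and 3.90% over protein-coding genes. In the list of genes that pattern the limb, rib, somite and facial skeleton, 12 of 17 had a region (70.6%). These 25 regions held 2017 ChIP and 212 input tags, or a ratio of 9.51 (8.25 to 11). In what follows, the parentheses after a gene give the span of its regions on mm9 and the ratio of ChIP to input tags over all of them with its interval. Lmx1b (chr2:33426748-33495028, 7.13, 5.6 to 9.19), which gives the limb its dorsal identity, had the most sequence of the 55 genes, with 542 ChIP and 76 input tags in 6 regions. All of them lay inside the gene. The region nearest to the 5′ end, 1003 bp away, ran from 33491979 to 33495028 (mm9) with 145 ChIP and 17 input tags, and the farthest began 68244 bp into the gene with 62 and 11. Thus the regions of Lmx1b were scattered over the gene body. The ratio was lowest at the region 23720 bp from the 5′ end, with 42 ChIP and 14 input tags (3.0, interval 1.61 to 5.95), and highest at the region 4236 bp away, with 108 and 9 (12, interval 6.09 to 27). Only these 2 intervals, those of the lowest and the highest region, do not overlap.

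Barx1 (chr13:48755677-48762713, 11.5, 8 to 17.1), a gene of facial mesenchyme and stomach, had 2 regions on chromosome 13. The region from 48758438 to 48762713 began 33 bp into the gene and held 249 ChIP and 18 input tags, or a ratio of 13.8 (8.57 to 23.7). Its −log10 q-value of 239.9 was the highest at any of the 44 genes. The second region, from 48755677 to 48758052, ended 353 bp before the 5′ end and held 119 ChIP and 14 input tags. With only a short gap at the start of the gene, the mark thus flanked the 5′ end on both sides. Its relative Barx2 (chr9:31721260-31722187) had 1 region of 928 bp on chromosome 9, 390 bp upstream, with 49 ChIP and 0 input tags. Against a floor of 3 input tags, which allows for error of the input alone, this is at least 16.3-fold, and the interval of the ratio, which allows for error of both counts, begins at 12.8.

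Pitx1 (chr13:55923111-55938942, 11.9, 7.34 to 20.4), which gives the hindlimb its identity, had 3 regions on chromosome 13, all outside the gene. Upstream, the region 939 bp from the 5′ end held 62 ChIP and 4 input tags and that at 4852 bp held 71 and 5, and downstream the region held 81 and 9. En1 (chr1:122494745-122508206, 22.8, 11.3 to 53.5), a gene of the ventral limb and the midbrain, likewise had 3 regions outside the gene, with 68 and 2, 63 and 2, and 51 and 4 ChIP and input tags. Together they gave the highest ratio at any gene with more than 1 region. Shox2 (chr3:66771406-66779574, 7.67, 4.85 to 12.7), a gene of the proximal limb, had a region of 2116 bp in its body with 99 ChIP and 21 input tags. A second one, 4710 bp downstream, held 62 and 0 (at least 20.7-fold against the floor, interval from 16.3). Per kb, the region in the body of Shox2 held 46.8 ChIP and 9.92 input tags, and the downstream region held 57.6 and 0.

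The Msx genes act in limb mesenchyme and in sutures of the skull. Msx2 (chr13:53556142-53565351, 8.67, 5.67 to 13.8) had 2 regions on chromosome 13, with 112 ChIP and 12 input tags inside the gene and 96 and 12 at 4161 bp downstream. Msx1 (chr5:38217017-38217864) had 1 region of 848 bp, 1193 bp upstream, with 46 and 0 (at least 15.3-fold against the floor, interval from 12). Alx4 (chr2:93477602-93484283, 6.04, 3.9 to 9.73), a gene of the limb and skull, had 68 ChIP and 8 input tags in a region 467 bp into the gene and 77 and 16 in a region 3498 bp upstream. The lower of these ratios was 4.81 (2.78 to 8.84) and the higher 8.50 (4.08 to 20.5), which overlap. Uncx (chr5:140027692-140028625, 51, 8.75 to 2053), a gene of the posterior part of the somite, had 51 ChIP and 1 input tags in a region 3560 bp downstream, so that its ratio rests on a single input tag. The smallest amounts were found at Gsc (chr12:105716206-105716650, 5, 1.88 to 16.7), with 25 and 5 tags in 445 bp, and at Meox1 (chr11:101750891-101751311, 8.67, 2.66 to 44.7), with 26 and 3 tags in 421 bp. At Gsc the region lay 4760 bp upstream, close to the limit of 5000 bp for naming a gene.

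The other 5 of this list were named by no region. They were Prrx1, a gene of early limb mesenchyme, Alx1, a gene of the facial skeleton, Meox2, a gene of the somite, and Meis1 and Meis2, genes of the proximal limb. In these genes signal below a ChIP height of 8 or farther than 5000 bp away was not detectable.

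Of the genes known from the forebrain, midbrain and eye, 9 of 14 had a region (64.3%). Their 20 regions held 2035 ChIP and 276 input tags, or a ratio of 7.37 (6.5 to 8.39). Gsx2 (chr5:75466241-75476934, 8.65, 6.48 to 11.8), a gene of the ventral forebrain, had 4 regions on chromosome 5 that lay close together between 75466241 and 75476934. They held 45 and 9, 144 and 22, 120 and 14, and 141 and 7 ChIP and input tags. Along the gene, the first and the second were upstream, the third was inside it, 365 bp from the 5′ end, and the fourth lay 386 bp downstream. Its relative Gsx1 had none. The Emx genes, which pattern the cerebral cortex, differed in the same way. Emx1 (chr6:85133099-85145685, 7.98, 5.84 to 11.1) had 3 regions on chromosome 6. The longest covered 4627 bp in the gene with 239 ChIP and 38 input tags. Another region inside the gene held 89 and 6, and a region 4357 bp upstream held 31 and 1.

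Emx2 itself was not named, but a region on chromosome 19, from 59522299 to 59523905, lay inside Emx2os, the gene on its opposite strand. This region held 81 ChIP and 6 input tags, or a ratio of 13.5 (5.94 to 37.9). The distance from this region to Emx2 was not measured.

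Otx2 (chr14:49271174-49280002, 9.69, 6.72 to 14.4), a gene of the anterior head, had 3 regions on chromosome 14 with 172 and 17, 102 and 15, and 36 and 0 ChIP and input tags, the last of these at least 12-fold against the floor, with an interval from 9.27. None of them lay within 2500 bp of the 5′ end. Otx2os1, on the opposite strand of Otx2, was named by 2 further regions, with 38 and 2, and 26 and 6 tags. For the related gene Otx1 there was no region. Gbx2 (chr1:91819913-91831549, 8.52, 5.7 to 13.2), which acts at the boundary of midbrain and hindbrain, had 111 and 8 tags upstream, 72 and 6 inside the gene and 47 and 13 downstream. Its relative Gbx1 had a single region of 2153 bp inside the gene, with 106 and 20. En2 had a single upstream region of 3951 bp with 199 ChIP and 39 input tags. Its ratio of 5.10 (3.61 to 7.39) was lower than the 22.8 of En1 (11.3 to 53.5), with intervals that do not overlap. ChIP tags per kb were 50.4 at En2 and 57.4 at En1, and the ratio of En1 rests on 8 input tags. Otp, a gene of the hypothalamus, had 124 and 14 tags in a region 432 bp into the gene and 51 and 4 tags farther in. Vax1, a gene of the optic stalk (156 and 31 tags), and Pitx3, a gene of the lens and dopaminergic neurons (50 and 12 tags), had the other regions of this list. Bsx, a gene of the hypothalamus, and Vsx1, a gene of retinal bipolar cells, like Gsx1, Emx2 and Otx1, had none.

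All 15 genes known from the hindbrain, spinal cord, sensory organs and peripheral neurons had a region, against 80% of the 55 genes. This list too was drawn up with earlier results known, so the count describes the list and not neural genes at large. The 31 regions held 2495 ChIP and 329 input tags, or a ratio of 7.58 (6.76 to 8.53). The list of the skeleton (9.51, interval 8.25 to 11) had an interval that overlaps this one only slightly. Both intervals pool the tags of many genes and leave out the spread between genes. Median ChIP density was close, with 53.4 tags per kb in the regions of the skeletal list and 53.9 in those of this list. In the Hmx genes, which act in the inner ear and sensory ganglia, Hmx1 (chr5:35724342-35734172, 7.98, 5.86 to 11.1) had 4 regions on chromosome 5. They held 131 and 18, 116 and 16, 59 and 2, and 61 and 10 ChIP and input tags. The first and the second of these were separated by less than 50 bp.

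Hmx2 and Hmx3 are neighbours on chromosome 7. Hmx2 (chr7:138694965-138700309, 7.48, 5.06 to 11.4) had 3 regions, with 42 and 8, 96 and 6, and 79 and 15 ChIP and input tags. The middle one, from 138696127 to 138697536, ended 40 bp before the 5′ end and had the highest density of the 3, with 68.1 ChIP tags per kb. Hmx3 (chr7:138681672-138683035, 6.64, 3.5 to 13.9) had 1 region with 73 and 11 tags, 11.9 kb from the nearest region of Hmx2. The pair thus had 4 regions in all, and all but one were upstream of the gene they named.

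The Tlx genes act in spinal or peripheral neurons and, for Tlx1, in the spleen. Tlx1 (chr19:45218529-45233878, 7.84, 5.55 to 11.4) had 242 ChIP and 34 input tags in an upstream region of 4752 bp and 48 and 3 tags downstream. Tlx2 (chr6:83014060-83026412, 7.56, 5.59 to 10.4) had 164 and 24 tags in the gene, 143 and 16 upstream and 56 and 8 downstream, and Tlx3 had 105 and 22 tags in a single region 40 bp downstream. Lbx1 (chr19:45303872-45305163, 3.67, 2.15 to 6.56), a gene of spinal interneurons and migrating muscle precursors, had a single region with 66 and 18 tags, 70.0 kb from the regions of Tlx1. Its ratio was the lowest at any of the 44 genes. The Barhl genes act in spinal and sensory neurons. Barhl2 (chr5:106882776-106892134, 5.76, 4.35 to 7.75) had 4 regions on chromosome 5, with 100 and 18, 59 and 16, 76 and 22, and 99 and 2 ChIP and input tags. Per kb, ChIP tags ran from 43.1 to 55.6 among them and input tags from 1.11 to 15.1. The outermost upstream region had a ratio of 49.5 (13.3 to 414), with an interval entirely above that of the other 3 regions, of which the highest was 5.56 (3.34 to 9.75). Barhl1 had a single region with 63 and 7 tags.

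The Evx genes lie next to Hox clusters. Evx1 (chr6:52258195-52268229, 6.14, 3.85 to 10.3), at the end of the HoxA cluster on chromosome 6, had 76 ChIP and 18 input tags inside the gene and 53 and 3 tags upstream. The upstream region had the highest density of the 90, with 70.4 ChIP tags per kb. Evx2 (chr2:74488232-74502179, 15.2, 8.87 to 28.3), beside the HoxD cluster on chromosome 2, had 92 and 8, 70 and 4, and 51 and 2 tags. All 3 regions of Evx2 lay outside the gene, and the last was also named for Hoxd13. Over these 3 regions the ratio had an interval above the 7.47 of the whole list. The LIM homeobox gene Lmx1a, which acts in midbrain and roof plate, had 52 and 2, 30 and 2, and 28 and 2 tags inside the gene. Isl1 and Isl2, genes of motor and sensory neurons, had 36 and 0 tags downstream (at least 12-fold against the floor, interval from 9.27) and 86 and 8 tags upstream. Phox2a, a gene of noradrenergic neurons, had 43 and 4.

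Among the 6 Iroquois genes, which pattern the neural plate, the heart and the limb and lie in 2 clusters, 5 had a region (83.3%). Their 9 regions held 536 ChIP and 73 input tags, or a ratio of 7.34 (5.74 to 9.51). On chromosome 13, Irx1 (chr13:72096114-72098000, 11.1, 5.16 to 28.6) had 78 ChIP and 7 input tags inside the gene, Irx2 (chr13:72760964-72773430, 12.3, 5.71 to 31.5) had 55 and 3 upstream and 31 and 4 downstream, and Irx4 (chr13:73405194-73408313, 4.7, 3.21 to 7.06) had 155 and 33 in a region of 3120 bp inside the gene. On chromosome 8, Irx5 (chr8:94884261-94889497, 5.81, 3.4 to 10.6) had 24 and 6 inside the gene and 69 and 10 downstream. Irx6 (chr8:95200030-95204270, 12.4, 6.52 to 26.5) had 26 and 2, 56 and 3, and 42 and 5, all inside the gene. Only Irx6 had a region within 2500 bp of its 5′ end (1 of 5 genes, against 56.1% of all listed genes). A ChIP height of 10 was reached at 0 of the 5, against 19.5% of all listed genes, and 5 genes are too few to read a difference from either share. Irx3 had no region.

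In the span of 1312 kb from Irx1 to Irx4 there were 6 listed regions, and 2 of them had no gene within 5000 bp. They lay beside Irx1 (82 ChIP and 10 input tags) and Irx2 (39 and 6). Within 17.4 kb of the start of the first Irx5 region there were 5 regions, of which 3 had no gene, with 112 and 11, 57 and 9, and 95 and 11 tags. Downstream of Irx5, these thus held more ChIP tags (264) than the regions that named the gene (93). On the other side of Irx5, where Irx3 lies in the RefSeq annotation, the nearest listed region was 484 kb from the first Irx5 region. It held 61 ChIP and 2 input tags and had no gene within 5000 bp. The distance from this region to Irx3 was not measured. Past the last region of Irx6 there was a further region with no gene within 5000 bp, with 47 ChIP and 5 input tags. Irx1 and Irx4 were each named by a single region.

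**Figure D3:**
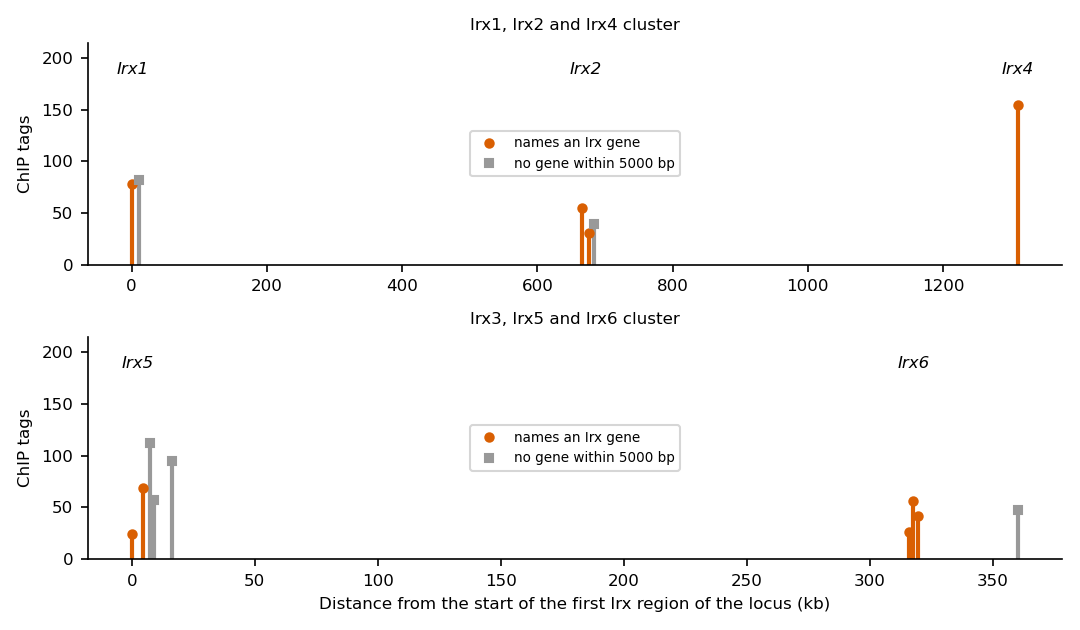
ChIP tags (vertical axis) of the listed regions in both Irx clusters, by distance from the start of the first region that names an Irx gene (kb). The region 484 kb from that of Irx5, on the side of Irx3, is not drawn. Orange points name an Irx gene and grey squares have no gene within 5000 bp. Irx4 has the most tags (155), and 3 grey regions follow Irx5.

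Of the remaining genes, Cdx2 (chr5:148113748-148121331, 9.32, 6.63 to 13.5), which specifies the intestine, had a region of 5512 bp on chromosome 5 from 148113748 to 148119259, the longest of the 90. It held 267 ChIP and 34 input tags, or a ratio of 7.85 (5.48 to 11.6). From the distance of its neighbour, it reached 434 bp before the 5′ end and 5077 bp into the gene. The upstream neighbour held 78 and 3 tags, a ratio of 26.0 (8.57 to 129), so that the intervals overlap. Its relative Cdx1 had 117 and 12, and 23 and 2 tags, in both regions downstream of the gene and next to Slc6a7. Gsc2 had 119 and 8 tags in a single region inside the gene.

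By class of homeodomain, a region was found for 25 of 29 genes of the ANTP class, 10 of 14 of the PRD class, 5 of 8 of the TALE class and 4 of 4 of the LIM class. The share was 80% over all 55 genes, which were picked with earlier results known, and 3.90% over protein-coding genes. The 3 genes of the TALE class without a region were Irx3, Meis1 and Meis2. Median sequence in regions per gene was 3762 bp in the ANTP class, 2494 bp in the PRD class, 1887 bp in the TALE class and 1748 bp in the LIM class. The classes overlapped widely, since the LIM class ran from 623 to 10566 bp and the ANTP class from 421 to 8280 bp.

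The ratio of ChIP to input tags per gene had an interval that included the 7.47 of the whole list at 33 of the 44 genes. It lay above at 8 (Barx1, Barx2, En1, Evx2, Isl1, Lmx1a, Msx1 and Uncx) and below at 3 (En2, Irx4 and Lbx1). The same count over all listed genes is not given here, so whether these numbers are particular to the homeobox genes cannot be read from them. Several of the 8 genes had little input, with 0 input tags at Barx2, Isl1 and Msx1 and 1 at Uncx. Across the 90 regions, ChIP tags ranged from 41.3 to 70.4 per kb and input tags from 0 to 17.8 per kb. The ratios thus differed mainly through the input, which was counted from few tags, with a median of 8 per region.

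**Figure D4:**
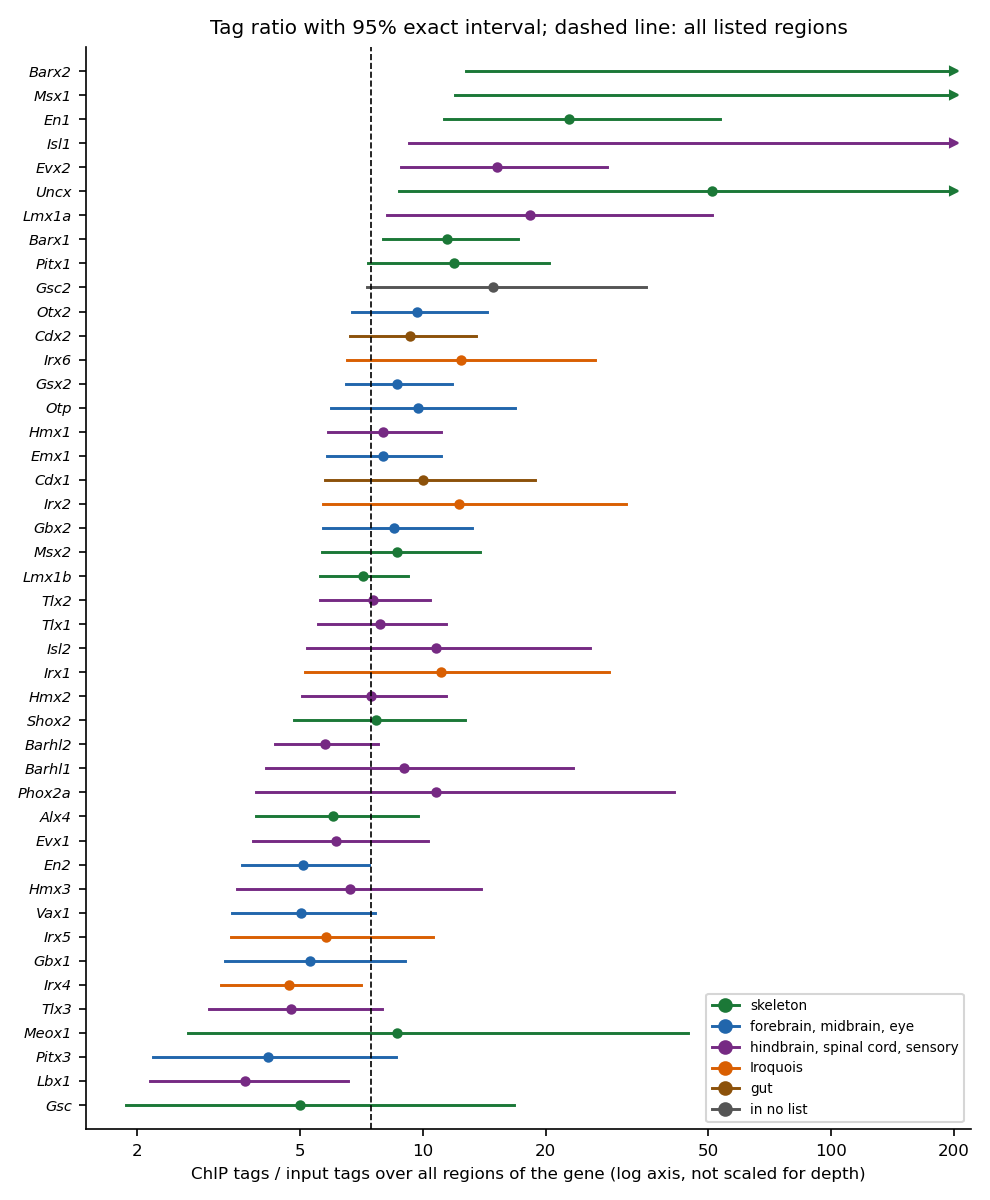
Ratio of ChIP to input tags over all regions of each homeobox gene (log axis, not scaled for depth), with its 95% Clopper-Pearson interval. The dashed line is the ratio of all listed regions (7.47), and arrows mark intervals that run past the axis. Intervals lie above the line at 8 genes and below it at 3, without a count over all listed genes beside them.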

How the data were processed

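H3K27me3 ChIP and input DNA were sequenced from 1 library each. The authors mapped the reads to mm9 with the DNAnexus mapper and used QuEST for region calling, with input as the control and settings not given in the sources used here. The deposited counts are whole numbers of tags per region. The deposited ratio divides ChIP by input tags, with input set to at least 9.20 per kb, a floor inferred from the numbers themselves. The deposited signal height gives the peak of the smoothed profile, and the deposited q-value is written as −log10. The deposited distances are in bp, and whether positions count from 0 or 1 is not stated.

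The genes and gene lists were chosen with earlier results of these data known. Of 922 gene names, 912 matched a RefSeq symbol or synonym, and none of the 55 genes appeared under an older symbol. Ratios of tags were given 95% Clopper-Pearson intervals, which were tested on simulated data. They treat tags as independent and cover counting error only, and no test between conditions was possible. All 55 genes were named. The span of the regions, tags and ratio were given for the 12 genes with the most bp in regions, linked genes and the skeletal list. Positions of single regions were given for some of these genes only. Roles and classes were assigned by hand. Alternatives were other limits on position, height, q-value and input, nearest genes only and merged regions. Computations ran in Python 3.11.15 with scipy 1.17.1, pandas 2.3.3 and numpy 2.4.6, and plots were drawn with matplotlib 3.10.9.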

Additional observations from a re-analysis of the deposited data

How the results depend on the processing

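The counts depended most on position and height. With only regions overlapping the gene, 27 homeobox genes and 41 regions remained, 8 genes had at least 2 regions, the median was 2077 bp and the ratio of ChIP to input tags was 7.56. Limiting the distance to the 5′ end to 2500 bp gave 25 genes, 35 regions, 7 genes with at least 2 and a median of 2270 bp. A ChIP height of at least 9 left 25 genes, 41 regions, 12 genes with at least 2 and a median of 2402 bp. A height of at least 10 left 12, 15, 3 and 2088 bp, with a ratio of 8.70. With input below the floor of the caller the ratio was 10.2 and the median 2099 bp, as regions with much input were left out. The median was 2516 bp with nearest genes only, 3054 bp with a −log10 q-value of at least 50, and 3144 bp with regions within 3000 bp merged, where 16 genes had at least 2. The planned comparison of CG content was not run, since too few genes had a window. No paired analysis was possible because there is 1 ChIP and 1 input library.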

Other observations

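Within 50 kb of the regions of the 44 homeobox genes there were 54 further regions with no gene within 5000 bp, at 21 of the 44 genes (47.7%), against 22.6% of all 922 listed genes counted in the same way. The search ran from 50 kb before the first to 50 kb after the last region of a gene. Genes with several regions, more frequent among the homeobox genes, thus had a wider search. The second homeobox list and the Hox and Lhx genes were not counted separately. The whole list held 733 regions with no gene. The 54 regions near the homeobox genes covered 71723 bp and held 3877 ChIP and 491 input tags. Their ratio was 7.90 (95% interval by Clopper-Pearson 7.19 to 8.69), against 8.10 (7.57 to 8.67) in the regions that named the genes. There were 8 such regions around Evx1, 5 around Tlx1 and 5 around Uncx. At Uncx they held 446 ChIP and 57 input tags in 8556 bp, while the single region that named Uncx covered 934 bp. At Tlx1 they held 421 ChIP and 45 input tags, and at Evx1 487 and 72.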
